A study of Mus musculus with 6 samples.

Results

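Matrix metalloproteinases are zinc-dependent endopeptidases that are made as inactive proenzymes and cut collagens, gelatin, elastin and other parts of the extracellular matrix once their propeptide is removed. Tissue inhibitors of metalloproteinases (TIMPs) bind the active site and block them. In healing skin the family is known for freeing keratinocytes from their collagen contacts, clearing damaged matrix and letting leukocytes move through it. The genes described here are 8 metalloproteinases (Mmp2, Mmp3, Mmp9, Mmp10, Mmp12, Mmp13, Mmp14 and Mmp19) and 2 inhibitors (Timp1 and Timp3), 10 of the 19938 genes measured. They were chosen with earlier results of these data known, and their probe sets were found by gene symbol in the array annotation. Each had 1 probe set.

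Transcript levels were measured on Affymetrix mouse gene arrays, which read probes spread over a gene's exons and do not separate isoforms. The material was whole skin of the back from males of BALB/c, an albino inbred line of mouse, at an age of 5 to 6 weeks. The groups were wounds taken on day 1, wounds taken on day 4 and intact skin, with 2 arrays each. Every wounded mouse carried a pair of 4 mm full-thickness punch wounds that left the fascia in place, and tissue was collected with an 8 mm punch, so a wound sample also holds the unwounded skin around it. The labels call the replicates biological but give no number of animals per array, so the p-values measure the spread between these samples, which may be partly technical. Values are log2 intensities, on which a difference of 1 is a doubling, and the number of arrays limits their precision. Array medians lay between 6.89 and 6.93. The 2 wound arrays of a day stood apart in hair genes: the summed linear intensity of 7 hair matrix and shaft markers was 5615 and 557 in day 1 wounds and 12400 and 746 in day 4 wounds, against 27338 and 27818 in intact skin (replicate 1 first in each group).

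Promoter sequences are shown for the members that carry an exact match to the binding motif of AP-1, and for both inhibitors, which carry no exact match in the window searched. AP-1 is the Fos and Jun transcription factor known to drive many metalloproteinase genes. The windows run from 100 bases before to 20 bases after the annotated start, from RefSeq on GRCm38.p6, plus strand: Mmp13 at chr9:7272414-7272533, Mmp3 at chr9:7445722-7445841, Mmp10 at chr9:7502242-7502361, the downstream start of Mmp12 at chr9:7347274-7347393, Timp1 at chrX:20870066-20870185 and Timp3 at chr10:86300312-86300431. Capitals mark the AP-1 motif, TGAGTCA or its reverse complement TGACTCA.
Mmp13: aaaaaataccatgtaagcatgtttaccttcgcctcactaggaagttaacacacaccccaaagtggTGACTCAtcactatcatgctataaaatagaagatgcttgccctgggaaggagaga
Mmp3: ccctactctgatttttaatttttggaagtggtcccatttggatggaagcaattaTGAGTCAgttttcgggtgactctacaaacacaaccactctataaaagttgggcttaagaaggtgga
Mmp10: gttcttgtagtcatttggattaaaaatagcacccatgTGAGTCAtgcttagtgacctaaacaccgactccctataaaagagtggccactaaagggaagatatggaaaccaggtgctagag
Mmp12: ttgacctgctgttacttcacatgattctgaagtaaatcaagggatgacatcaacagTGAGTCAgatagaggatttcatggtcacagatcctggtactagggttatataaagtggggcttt
Timp1: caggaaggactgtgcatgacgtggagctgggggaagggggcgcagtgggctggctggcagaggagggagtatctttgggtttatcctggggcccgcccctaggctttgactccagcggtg
Timp3: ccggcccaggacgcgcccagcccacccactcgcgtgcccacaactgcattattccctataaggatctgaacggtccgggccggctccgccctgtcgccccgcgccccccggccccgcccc
The first base of the motif lay 35 bases before the start in Mmp13, 46 in Mmp3, 63 in Mmp10 and 44 in Mmp12. The search covered both strands of 300-base windows, most of each lying before the start. Such windows were at hand for 7 of the 10 genes (8 windows, since Mmp12 has 2 annotated starts). Of the 8 windows 4 held the motif, against 5.2% of all 32851 mouse windows of this length. These 4 belong to related genes in the same cluster on chromosome 9, so they do not count as independent matches, and enrichment was not tested. Timp1, Timp3, Mmp14 and the upstream start of Mmp12 had no match, which says only that these exact letters are not in those windows. Variants of the motif were not searched. The Timp1 window holds a similar stretch, TGAGTAA, after the start and beyond the bases shown, so an AP-1 site there is not excluded.

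The comparisons with intact skin ask which of these genes differed early and later after injury. In day 1 wounds 8 of the 10 were higher, 1 (Timp3) was lower and 1 (Mmp12) did not pass the test, where 29.3% of all genes were called, 14.7% higher and 14.6% lower. In day 4 wounds 9 were higher and Timp3 was lower, where 26.9% of all genes were called, 14.8% higher and 12.1% lower. A call is an adjusted p under 0.05 in limma over all genes, with the spread estimated over all 6 arrays. The arrays of wound and intact skin did not overlap for any of the 10 genes on either day, with 9 higher and 1 lower. Such separation was common: on day 1 it held for 67.3% of all genes (29.0% higher, 38.2% lower), and on day 4 for 66.0% (30% higher, 36.0% lower). The median log2 change of the 10 was 2.04 on day 1 and 1.69 on day 4, against −0.04 and −0.03 over all genes. The 10 were chosen with earlier results of these data known, so these counts and medians do not stand for the whole family. Over the 14 other metalloproteinases measured the medians were 0.21 and 0.33, and over all 26 family genes 0.59 and 0.63. In a fit without limma's moderation, which rests on 3 residual degrees of freedom, 5 members were called higher on day 1, where 6.23% of all genes were called higher and 5.6% lower. On day 4 that fit called 2 members higher, where 4.28% of all genes were called higher and 2.98% lower, and it did not call Timp3 on either day. In whole tissue a change in the number of cells of a type and a change in RNA per cell cannot be told apart.

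**Figure D1:**
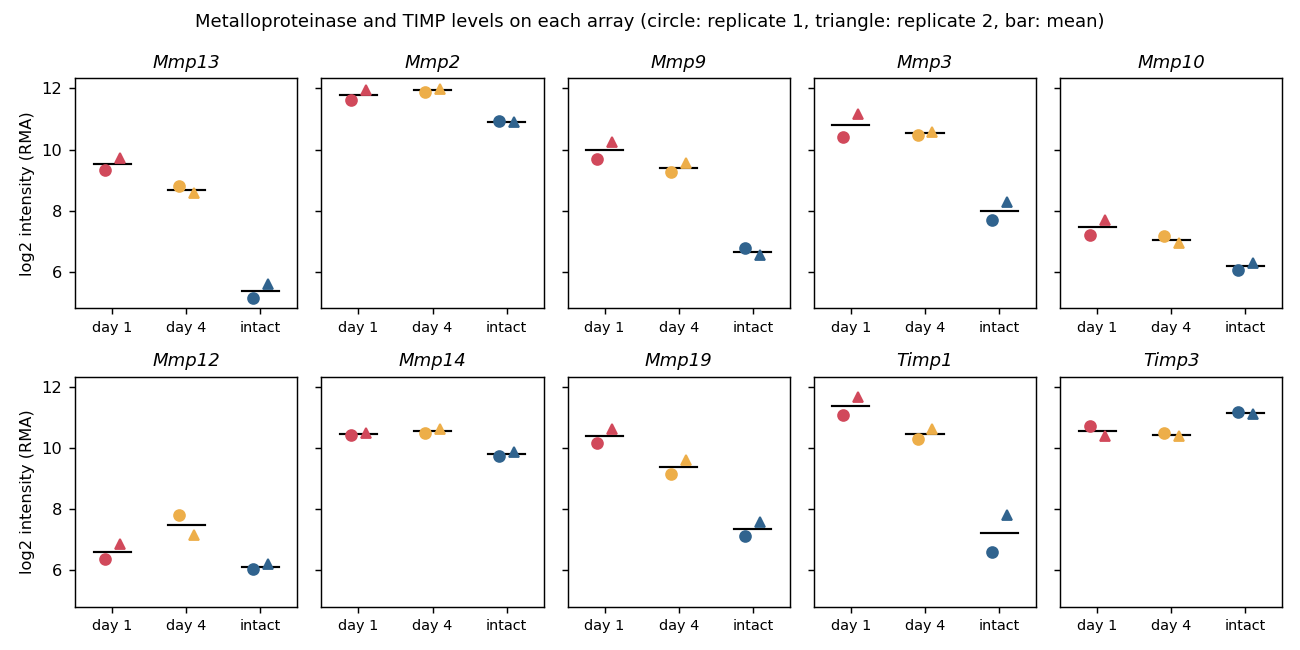
Log2 intensity (vertical axis) of the 10 genes in day 1 wounds, day 4 wounds and intact skin, with circles for replicate 1, triangles for replicate 2 and bars for the mean. In 9 panels all 4 wound arrays lie above both intact arrays, and in the Timp3 panel all 4 lie below.

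Mmp13, the main interstitial collagenase of the mouse, which makes the initial cut in fibrillar collagen, read 9.32 and 9.73 in day 1 wounds and 8.81 and 8.57 in day 4 wounds, against 5.15 and 5.62 in intact skin. All wound arrays lay far above both intact arrays, of which 1 was under the arrays' lower quartile (5.29 to 5.37), so the fold change is approximate. The gene rose 17.6-fold on day 1 (log2 change 4.14, SE 0.20, adjusted p = 7.59e-05) and 9.88-fold on day 4 (3.31, SE 0.20, adjusted p = 2.68e-04). Both calls held without any 1 array.

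The gelatinases cut denatured collagen and the collagen IV of basement membranes. Mmp9 (gelatinase B), stored in neutrophil granules and also made by macrophages and migrating keratinocytes, read 9.68 and 10.26 in day 1 wounds and 9.25 and 9.55 in day 4 wounds, against 6.77 and 6.54 in intact skin. It was 9.95-fold higher on day 1 (log2 change 3.32, SE 0.21, adjusted p = 1.73e-04) and 6.7-fold higher on day 4 (2.75, SE 0.21, adjusted p = 4.77e-04). Mmp2 (gelatinase A), typical of fibroblasts, read 11.62 and 11.95 in day 1 wounds and 11.89 and 11.98 in day 4 wounds, against 10.92 and 10.90 in intact skin. Its rise was 1.83-fold on day 1 (log2 change 0.88, SE 0.12, adjusted p = 0.00263) and 2.03-fold on day 4 (1.03, SE 0.12, adjusted p = 0.00197), from a transcript already bright in unwounded skin. The 95% intervals of the gelatinases did not overlap on either day: on day 1 they were 2.82 to 3.81 for Mmp9 and 0.59 to 1.16 for Mmp2, and on day 4 they were 2.25 to 3.24 and 0.74 to 1.31. The difference between the 2 changes was not tested.

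The stromelysins degrade proteoglycans, laminin and fibronectin and cut other proenzymes. Mmp3 (stromelysin 1), which stromal cells and keratinocytes behind the wound edge make, read 10.41 and 11.17 in day 1 wounds and 10.49 and 10.58 in day 4 wounds, against 7.69 and 8.27 in intact skin. It rose 7.01-fold on day 1 (log2 change 2.81, SE 0.28, adjusted p = 8.45e-04) and 5.88-fold on day 4 (2.56, SE 0.28, adjusted p = 0.00163), and all wound arrays lay above both intact ones. Mmp10 (stromelysin 2), an enzyme of keratinocytes at the migrating front, read 7.21 and 7.70 in day 1 wounds and 7.16 and 6.94 in day 4 wounds, against 6.08 and 6.29 in intact skin. Its rise was 2.41-fold on day 1 (log2 change 1.27, SE 0.17, adjusted p = 0.00289) and 1.82-fold on day 4 (0.87, SE 0.17, adjusted p = 0.0144). The day 4 call of Mmp10 was lost without day 4 wound replicate 1 (adjusted p = 0.0674) and on dropping either intact array (0.0992 for replicate 1 and 0.0535 for replicate 2).

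Mmp12, the macrophage metalloelastase, read 6.36 and 6.85 in day 1 wounds and 7.80 and 7.15 in day 4 wounds, against 6.03 and 6.22 in intact skin. On day 1 the log2 difference from intact skin was 0.48 (95% interval −0.11 to 1.07, adjusted p = 0.192), although the arrays of the groups did not overlap. On day 4 it was 2.55-fold higher (log2 change 1.35, SE 0.24, adjusted p = 0.00966), and its highest array was day 4 wound replicate 1. This call was lost on dropping either intact array (adjusted p = 0.074 for replicate 1 and 0.0502 for replicate 2). Over the 9 monocyte and macrophage markers the summed linear intensity was 10416 and 11487 in day 1 wounds and 11493 and 11855 in day 4 wounds, against 2630 and 3501 in intact skin, so these markers stood high on both days. All 9 of them were called higher on each day than in intact skin, where 14.7% of all genes were called higher on day 1 and 14.8% on day 4. Fcgr1 (an Fc receptor) was higher by 3.35 on day 1 and 2.49 on day 4, and Csf1r, the growth factor receptor of these cells, by 1.28 and 1.77 (log2 changes). From day 1 to day 4 the 9 markers differed by −0.86 to 0.885, with a median of 0.39. Of these markers 1 (C1qa) was called higher on day 4 than on day 1 (adjusted p = 0.0305), and 0 lower. Over all genes 1.09% were called higher and 1.14% lower between the days. Their part in the Mmp12 values was not tested.

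Mmp14 (MT1-MMP), the membrane-anchored collagenase that activates pro-MMP2 at the cell surface together with TIMP2, read 10.41 and 10.49 in day 1 wounds and 10.47 and 10.63 in day 4 wounds, against 9.73 and 9.88 in intact skin. Its rise was small but wider than the spread, 1.56-fold on day 1 (log2 change 0.65, SE 0.09, adjusted p = 0.00359) and 1.68-fold on day 4 (0.75, SE 0.09, adjusted p = 0.00272). Mmp19, a secreted enzyme that acts on basement membrane proteins, read 10.16 and 10.63 in day 1 wounds and 9.16 and 9.59 in day 4 wounds, against 7.13 and 7.58 in intact skin. It rose 8.22-fold on day 1 (log2 change 3.04, SE 0.23, adjusted p = 3.29e-04) and 4.06-fold on day 4 (2.02, SE 0.23, adjusted p = 0.00187). The 3 groups of Mmp19 were fully separate, with both day 1 arrays highest and both intact arrays lowest. The same held for Mmp9, Mmp10, Mmp13 and Timp1, although in Mmp10 the lower day 1 array (7.21) was close to the higher day 4 array (7.16). Separation of 2 groups was common over all genes: 67.3% for day 1 and intact skin, 66.0% for day 4 and intact skin, and 47.6% between the days. The share of all genes with this order of the 3 groups was not computed.

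The inhibitors moved in opposite directions. Timp1, a soluble inhibitor of most secreted metalloproteinases, read 11.08 and 11.67 in day 1 wounds and 10.29 and 10.61 in day 4 wounds, against 6.61 and 7.81 in intact skin. It was 17.9-fold higher on day 1 (log2 change 4.17, SE 0.39, adjusted p = 7.14e-04) and 9.45-fold higher on day 4 (3.24, SE 0.39, adjusted p = 0.00233). The intact arrays were 1.2 apart, and the day 1 change was 3.57 on dropping intact replicate 1 and 4.77 on dropping intact replicate 2. On day 4 these values were 2.64 and 3.84, and the calls held in all 4 cases. Timp3, an inhibitor that binds to the matrix and also blocks ADAM17 and the aggrecan-cutting ADAMTS enzymes, read 10.72 and 10.38 in day 1 wounds and 10.47 and 10.40 in day 4 wounds, against 11.16 and 11.12 in intact skin. All 4 wound arrays lay below both intact arrays, 1.51-fold lower on day 1 (log2 change −0.59, SE 0.12, adjusted p = 0.0121) and 1.63-fold lower on day 4 (−0.71, SE 0.12, adjusted p = 0.00757). The day 1 call of Timp3 was lost without intact skin replicate 1 (adjusted p = 0.0781) or replicate 2 (0.0628), and the day 4 call on dropping intact replicate 1 (0.06).

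The next comparison, of day 4 with day 1 wounds, asks whether the levels moved between the days. limma called 0 of the 10 genes, where 2.23% of all genes were called (1.09% higher and 1.14% lower), and at an unadjusted p under 0.05 the number was 4 (Mmp9, Mmp12, Mmp13 and Mmp19), where 18.9% of all genes lay under that value. Without moderation the count was also 0, in a fit that called 0.01% of all genes higher and 0% lower. The largest differences were −1.02 for Mmp19 (95% interval −1.57 to −0.47, adjusted p = 0.0822), −0.93 for Timp1 (−1.87 to 0.015, adjusted p = 0.271), 0.87 for Mmp12 (0.28 to 1.46, adjusted p = 0.13) and −0.84 for Mmp13 (−1.31 to −0.36, adjusted p = 0.0924). The arrays of the days did not overlap for 6 genes (5 lower and Mmp12 higher on day 4), where 47.6% of all genes did not overlap (25.6% higher and 22.0% lower). Mmp2, Mmp3, Mmp14 and Timp3 had overlapping arrays and differences between −0.26 and 0.15, with intervals reaching from −0.92 to 0.43. Ordered by mean level, Mmp3, Mmp9, Mmp10, Mmp13, Mmp19 and Timp1 stood highest on day 1, then day 4, then intact skin. Mmp2, Mmp12 and Mmp14 stood highest on day 4, then day 1, then intact skin, and Timp3 had the reverse of this order. The neighbouring pair of day 4 and day 1 was not told apart by the test in any of the 10 genes, nor was the pair of day 1 and intact skin in Mmp12.

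**Figure D2:**
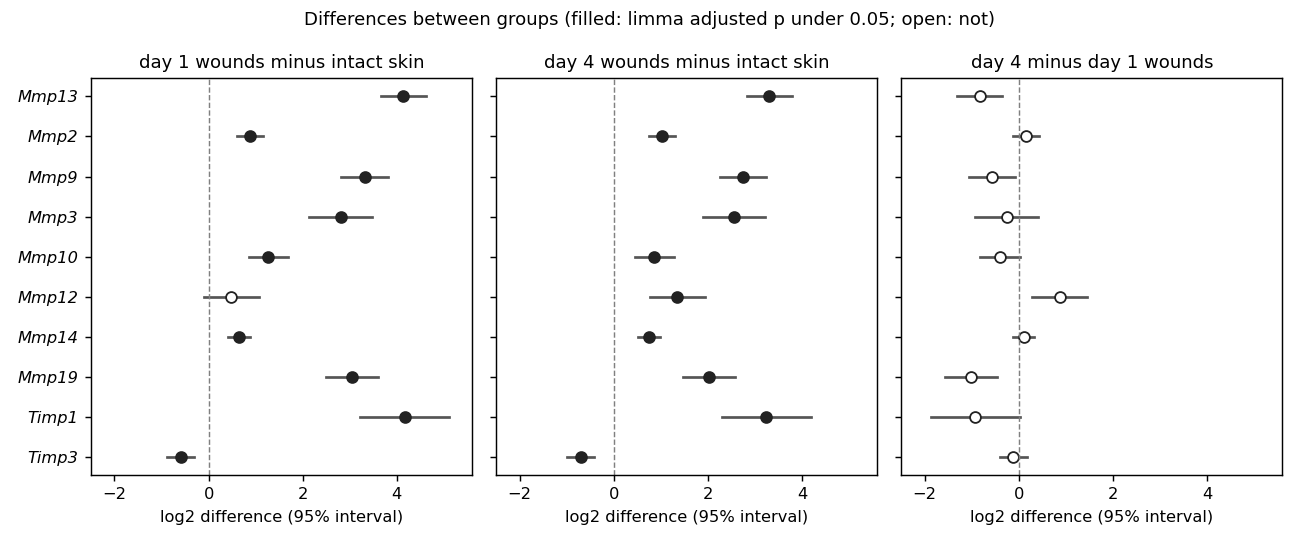
Log2 differences between groups with 95% intervals for the 10 genes, in day 1 wounds minus intact skin (left), day 4 wounds minus intact skin (middle) and day 4 minus day 1 wounds (right); filled circles passed the adjusted p of 0.05. In the left panel Mmp12 is the open circle, and in the right panel all 10 circles are open.

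Over the whole family, 26 metalloproteinase and TIMP genes had a single-symbol probe set. Of the 14 other metalloproteinases 5 were higher and 1 lower on day 1, and 4 were higher and 2 lower on day 4. The shares over all genes were 14.7% higher and 14.6% lower on day 1, and 14.8% and 12.1% on day 4. Mmp8, the collagenase stored in neutrophil granules, read 10.47 and 10.74 in day 1 wounds and 8.27 and 8.52 in day 4 wounds, against 4.60 and 4.45 in intact skin, where both arrays were under the lower quartile. It was the single metalloproteinase called between the days, lower on day 4 by a log2 change of −2.21 (95% interval −2.52 to −1.90, adjusted p = 0.00485). Mmp25, a membrane-anchored enzyme of leukocytes, rose 2.13-fold on day 1 (adjusted p = 0.00101) and 1.52-fold on day 4 (adjusted p = 0.0113). Mmp27 was 1.72-fold higher on day 1 (adjusted p = 0.00362) and 2.41-fold higher on day 4 (adjusted p = 8.98e-04), and Mmp23 was 1.56-fold higher on day 4 (adjusted p = 0.00644). The mouse relatives of human interstitial collagenase rose on day 1, Mmp1b by 3.24-fold (adjusted p = 0.00828) and Mmp1a by 1.8-fold (adjusted p = 0.0132), but at dim levels. Both intact arrays of each gene and 1 of its 2 day 1 arrays lay under the lower quartile, so the folds are approximate. These 2 are copies of 1 ancestral gene, and whether their probes read both was not tested, so their values are uncertain. Mmp20, the enamel protease, was lower on both days by −0.47 and −0.61 on the log2 scale (adjusted p = 0.00473 and 0.00236) and Mmp21 on day 4 by −0.33 (adjusted p = 0.0187), both at dim levels between 5.15 and 5.85. Mmp7 (matrilysin), Mmp11, Mmp16, Mmp17, Mmp24 and Mmp28 were not called in any comparison. Timp2, the partner of MMP14 in activating pro-MMP2, was 1.26-fold higher on day 4 (adjusted p = 0.0298), with a log2 difference of 0.05 on day 1 (adjusted p = 0.699). Timp4 was 1.31-fold higher on day 1 (adjusted p = 0.0106) and lower on day 4 than on day 1 by −0.45 (adjusted p = 0.0446).

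Mmp3, Mmp10, Mmp12 and Mmp13 lie in a cluster of metalloproteinase genes on chromosome 9, in the order Mmp13, Mmp12, Mmp1b, Mmp3, Mmp1a, Mmp10, Mmp8, Mmp27, Mmp20 and Mmp7 in the RefSeq table of GRCm38.p6. Of these 10 neighbours 7 were higher and 1 lower on day 1, and 6 were higher and 1 lower on day 4. Over all genes 14.7% were called higher and 14.6% lower on day 1, and 14.8% and 12.1% on day 4. The size of the change did not follow the order: Mmp12, next to Mmp13, had 0.48 on day 1 against 4.14 for Mmp13, while Mmp20, at the other side, lay below 0. The AP-1 motif stood in a window of 7 of the 10 genes, of which 5 were called higher on day 1. Of the 3 genes without the motif in their window, Mmp8 and Mmp27 were called higher on day 1 and Mmp20 lower. Mmp7, which holds it, read between 5.41 and 5.79 on all 6 arrays, close to the lower quartile, and was not called.

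**Figure D3:**
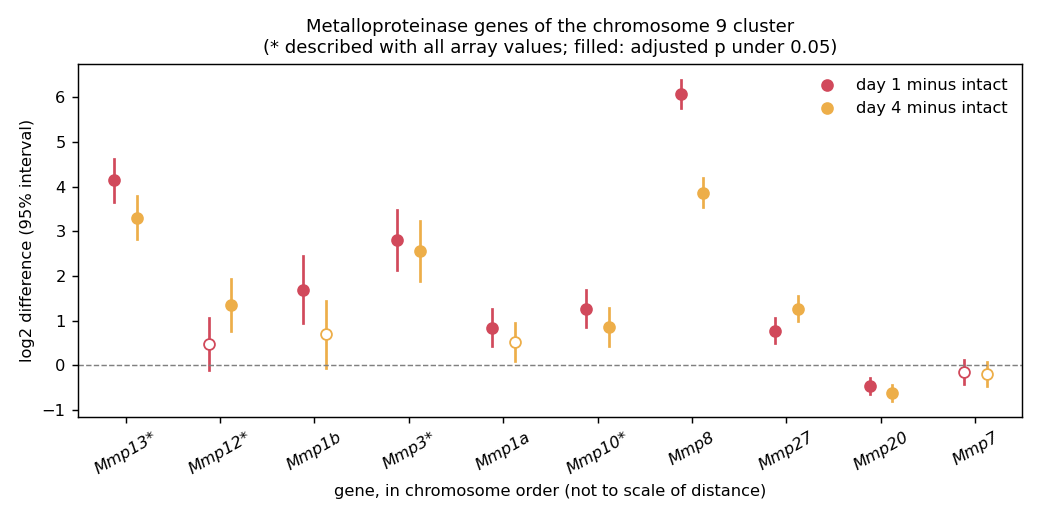
Log2 difference from intact skin with its 95% interval (vertical axis) in day 1 wounds (red) and day 4 wounds (yellow) for the metalloproteinase genes of chromosome 9, in their order along the chromosome; filled circles passed the adjusted p of 0.05. Mmp8 stands highest at 6.08 on day 1, a size that is approximate because both intact arrays lie under the lower quartile, and Mmp20 lies below 0 on both days.

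Genes that act on metalloproteinases, or share their inhibitors, were set beside them. The counts of this and the following lists stand against the shares over all genes. These were 14.7% higher and 14.6% lower on day 1, 14.8% and 12.1% on day 4, and 1.09% and 1.14% between the days. Of 7 genes of proenzyme activation 1 was higher on day 1 and 2 on day 4, with none lower. Plaur, the urokinase receptor that focuses plasmin formation at the cell surface, rose 10.1-fold on day 1 (adjusted p = 1.49e-04) and 6.32-fold on day 4 (adjusted p = 4.58e-04). Plau, urokinase itself, was 1.29-fold higher on day 4 (adjusted p = 0.0174) with a log2 difference of 0.01 on day 1 (adjusted p = 0.937). The list median was −0.08 on day 1 and 0.17 on day 4. Of 4 brakes and clearance genes 2 were higher on day 1 and 3 on day 4, with list medians of 0.48 and 0.68. Lrp1, the endocytic receptor that removes metalloproteinases and their complexes, rose 2.07-fold on day 1 (adjusted p = 0.00171) and 1.93-fold on day 4 (adjusted p = 0.00321). Tfpi2, a Kunitz-type protease inhibitor, rose 1.83-fold on day 1 (adjusted p = 0.00208) and 2.00-fold on day 4 (adjusted p = 0.00171). Reck, a membrane-anchored inhibitor, was 1.34-fold higher on day 4 (adjusted p = 0.0266). Of the 4 ADAM and ADAMTS proteases that TIMP3 inhibits, 3 were higher on each day, at list medians of 1.04 and 0.86, while Timp3 was lower in the same samples. Adamts4 rose 4.59-fold on day 1 (adjusted p = 1.67e-04) and 1.95-fold on day 4 (adjusted p = 0.00379), and was lower on day 4 than on day 1 by −1.24 (adjusted p = 0.0199). Adamts5 rose 2.42-fold on day 1 (adjusted p = 0.00178) and 1.89-fold on day 4 (adjusted p = 0.00741), and Adam17, the TNF-releasing sheddase, rose 1.75-fold on each day (adjusted p = 0.00354 and 0.0044). Adam10, the remaining gene, was not called.

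Of 14 matrix substrates 5 were higher and 1 lower on day 1, and 6 were higher and 1 lower on day 4, with list medians of 0.34 and 0.53. Versican (Vcan) rose 4.08-fold on day 1 (adjusted p = 0.00191) and 2.3-fold on day 4 (adjusted p = 0.016), and tenascin C (Tnc), a matrix protein of wound beds, rose 3.34-fold and 3.13-fold (adjusted p = 7.99e-04 and 0.00135). Lamb3, a laminin chain of the epidermal basement membrane, rose 1.73-fold and 1.86-fold (adjusted p = 0.00124 and 0.00115), and decorin (Dcn), a collagen-binding proteoglycan, rose 1.42-fold and 1.51-fold (adjusted p = 0.00402 and 0.00293). Biglycan (Bgn), a relative of decorin, rose 1.27-fold on day 1 (adjusted p = 0.0338) and 1.48-fold on day 4 (adjusted p = 0.00623). The fibrillar collagens Col3a1 and Col1a1 are given as well, a choice made after their values were seen. Col3a1, the early repair collagen and a substrate of MMP13, was 1.76-fold higher on day 4 (adjusted p = 0.00967), with a log2 difference of 0.33 on day 1 (adjusted p = 0.145). Col1a1 had 0.11 on day 1 and 0.59 on day 4 (adjusted p = 0.735 and 0.0752), so the main fibrillar collagen was not called on either day. Aggrecan (Acan) was the gene of this list that was lower, at −0.62 and −0.64 (adjusted p = 0.019 and 0.0193), but at dim levels of 5.04 to 5.95 with 1 array of each wound group under the lower quartile, so the sizes are approximate.

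All 7 measured cytokines and growth factors known to induce metalloproteinases were higher on each day, with list medians of 2.18 and 1.34. Il1b rose 44.5-fold on day 1 (adjusted p = 1.7e-05) and 36.1-fold on day 4 (adjusted p = 3.11e-05), and oncostatin M (Osm), a strong inducer of TIMP1, rose 10.9-fold and 7.86-fold (adjusted p = 2.83e-05 and 8.02e-05). Tnf rose 4.52-fold and 4.89-fold (adjusted p = 1.01e-04 and 1.63e-04), and Il1a rose 3.43-fold and 2.37-fold (adjusted p = 8.07e-05 and 4.14e-04). Il6 and Il1a were lower on day 4 than on day 1, by −2.71 (adjusted p = 0.0291) and −0.54 (adjusted p = 0.0428). The size for Il6 is approximate, because 1 of its 2 day 4 arrays lay under the lower quartile. Of 9 AP-1 and ETS factors, the classes whose motifs are known from metalloproteinase promoters, 5 were higher and 1 lower on day 1, and 3 were higher and 1 lower on day 4, with list medians of 0.47 and 0.22. Fos rose 3.33-fold on day 1 (adjusted p = 1.22e-04) and 2.21-fold on day 4 (adjusted p = 7.30e-04), Fosl1 rose 2.21-fold and 1.5-fold (adjusted p = 0.0024 and 0.0318), and Ets1 rose 2.19-fold and 1.85-fold (adjusted p = 0.00104 and 0.00323). Junb rose 1.41-fold on day 1 (adjusted p = 0.00528). Jund was lower on both days at −0.47 and −0.39 (adjusted p = 0.0148 and 0.0318), and Jun, named after its values were seen, was not called, at −0.15 and −0.07 (adjusted p = 0.264 and 0.608).

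**Figure D4:**
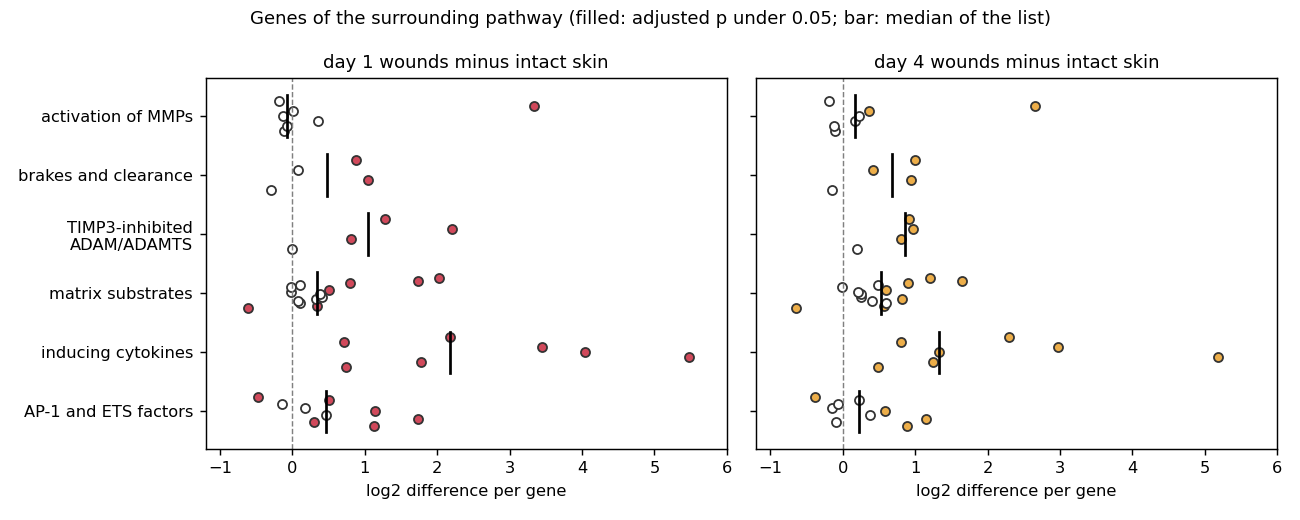
Log2 difference from intact skin of each gene (circles, horizontal axis) in day 1 wounds (left) and day 4 wounds (right) for 6 lists around the metalloproteinases; filled circles passed the adjusted p of 0.05 and bars are list medians. The cytokine list has the highest median in each panel, 2.18 and 1.34.

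Markers of cell types known to make these enzymes moved in the same samples. Of 9 neutrophil markers 7 were higher on day 1 and 6 on day 4, and 3 were lower on day 4 than on day 1. Their summed linear intensity was 10780 and 14575 in day 1 wounds and 5922 and 7022 in day 4 wounds, against 559 and 642 in intact skin, where Ly6g lay under the lower quartile on both arrays. From day 1 to day 4 the 9 neutrophil markers differed by −2.53 to −0.085, with a median of −0.995. Ly6g had the largest fall of them, −2.53 (adjusted p = 0.00485). Mmp8 differed by −2.21 and Mmp9 by −0.57 (adjusted p = 0.207). Of 5 wound-edge keratinocyte markers 4 were higher on each day, at a summed intensity of 16416 and 15877 on day 1 and 18502 and 17573 on day 4, against 7307 and 8116 in intact skin. Of 8 fibroblast markers 5 were higher and 1 lower on day 1, and 7 were higher and 1 lower on day 4, at a summed intensity of 7148 and 8953 on day 1 and 8782 and 9875 on day 4, against 5055 and 5433 in intact skin. Of 7 endothelial markers 6 were higher on each day, at 3314 and 3614 on day 1 and 2780 and 3451 on day 4, against 1858 and 2033 in intact skin. All 4 mast cell markers were higher on each day, 6 of 7 skeletal muscle markers were higher on day 1 and 4 on day 4, and 4 of 6 basal keratinocyte markers were higher on each day. Of 5 smooth muscle markers 1 was higher on day 1 and 3 on day 4, and of 5 adipocyte markers 1 was lower on each day. Of 7 hair matrix and shaft markers 5 were lower on day 1 and 3 on day 4, and 0 were higher. The list medians of the hair markers were −4.135 and −3.195, with the wide replicate spread in wounds given at the start. The part of these cell types in the levels of the metalloproteinases and TIMPs was not tested.

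The genes whose pattern over the 6 arrays was most like that of a member were sought among 1572 named genes with an SD of at least 0.5, with Pearson's r as a description. The 6 arrays share the 3 groups, and r reflects the group means as well as the arrays. Timp1 was closest to Dab2 (r = 0.9997), Mmp19 to Prr13 (0.9996), Mmp13 to Gdap10 (0.9992) and Mmp9 to Arhgap45 (0.9989). Mmp14 was closest to Dock11 (0.9986), Mmp3 to Lrp1 (0.9978), Mmp2 to C1s2 (0.9977), Timp3 to Gli2 (0.9946) and Mmp10 to Gch1 (0.9915). Mmp12 had the lowest best match, the small nucleolar RNA gene Snora73a (0.9739).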

How the data were processed

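The authors deposited 1 log2 intensity per probe set and array, made with RMA (background correction, normalization between arrays and a summary of probes) per the submitters' processing notes; no version is given in the sources used here. The table holds 35556 probe sets with values rounded to 2 decimals. The array annotation gave exactly 1 symbol for 21789 probe sets, several for 1621 and none for 12146; single-symbol probe sets alone were used, the brightest per gene, which gave 19938 genes. Of 138 list entries 133 were used. limma 3.58.1, run in R 4.3.3, was fitted to all 3 groups (a mean per group, eBayes, 3 residual and 3.4 prior degrees of freedom), with two-sided tests and Benjamini-Hochberg adjustment over all genes. The code was tested on simulated data. Fold changes are 2 to the power of the log2 change. Alternatives were 3 other scalings, a filter on the dimmest 30%, the mean of probe sets, 2 other priors, no moderation, only the groups compared, a replicate term and the loss of each array. Named were all members, all other family genes, and up to 4 genes per pathway list by p, with those against the list's direction. The members and lists were chosen with earlier results of these data known. Promoters come from RefSeq (GRCm38.p6) and matched 7 of the 10 genes. RNA integrity numbers were 7.7 to 9.1 per the labels.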

Additional observations from a re-analysis of the deposited data

How the results depend on the processing

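Of 480 recomputed member changes, 456 kept their sign and their side of the threshold, 20 fell out of the calls, 1 entered them and 3 changed sign. The scalings (quantile, cyclic loess, median centring), the filter on dim genes, the mean of probe sets, the other priors and the fit of only the groups compared changed no member count in any comparison, and moved the median of all genes by less than 0.1. Without moderation 5 members were higher and 0 lower on day 1, and 2 were higher and 0 lower on day 4; that setting has fewer degrees of freedom, and over all genes it called 1243 higher and 1117 lower on day 1 and 854 and 594 on day 4. On leaving out 1 array at a time, every change of a member from intact skin kept its sign, though the calls named above for Mmp10, Mmp12 and Timp3 were lost. Each such fit leaves 1 array in a group and called fewer of all genes in every comparison. The absence of member calls between the days in these fits is therefore not a sign of stability. The changes of sign were all between day 4 and day 1 and uncalled: Mmp2 was −0.015 and Timp3 0.055 without day 1 wound replicate 1, and Mmp3 was 0.125 without day 1 wound replicate 2; the cause was not tested. Over the arrays left out these 3 differences ranged from −0.015 to 0.315 for Mmp2, −0.635 to 0.125 for Mmp3 and −0.285 to 0.055 for Timp3. In the labels, samples with the same replicate number share only the number. Their deviations from the group means correlated at 0.685 between day 1 and day 4 wounds. Between those and intact skin the correlations were 0.0139 and 0.0227. With 2 arrays per group, 1 common axis of difference can give a large value, and its sign depends on the numbering. On both days replicate 1 had the higher summed intensity of hair markers (5615 against 557 on day 1, 12400 against 746 on day 4). What the wound arrays of a number share was not tested. With the replicate block, 1 member (Mmp19) was lower on day 4 than on day 1 (−1.02, adjusted p = 0.012), where 348 of all genes were lower, and it changed no other member's call.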

Other observations

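Mmp11 (stromelysin 3), which is not among the members, had the widest replicate spread of the family: it read 9.54 and 8.27 in day 1 wounds and 8.88 and 9.09 in day 4 wounds, against 8.38 and 8.37 in intact skin. Mmp12 was the member with the widest spread in day 4 wounds (SD 0.46), with day 4 wound replicate 1 higher, and the genes nearest to it over the 6 arrays were the small RNA genes Snora73a (r = 0.9739), Snora73b (0.9592) and Rny1 (0.9565), none of which encodes a protein. Il6, read at 8.21 and 8.15 in day 1 wounds and 4.95 and 6.00 in day 4 wounds, against 3.82 and 4.46 in intact skin, differed between the days by more on the log2 scale than any of the 10 members. Day 4 wound replicate 1 and both intact arrays of Il6 lay under the lower quartile, so the size is approximate.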
